A study of Sus scrofa with 16 samples.

Results

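Genes of cholesterol and bile acid metabolism were read in the colonic mucosa and liver of pigs fed corn starch (CS) or raw potato starch (RPS), a starch that largely resists digestion in the small intestine. The genes were HMGCS1, SQLE, SREBF2, CYP7A1, CYP27A1, NR1H4, SCARB1 and ABCA1, and a probe was taken when the gene name or the bracketed symbol in the array's own annotation was a gene of this list. This gave 16 of the 43603 probes, for 7 of the 8 genes, among 6990 symbols with a probe in all. ABCA1, the sterol exporter, was not matched to a probe and was not analysed here. All animals were Duroc × Landrace × Large White barrows (castrated males), started on the diets at 70 days of age and sampled at 170 days. In the CS group, the corn and soybean feed held purified corn starch at 230 g/kg up to 120 days of age and 280 g/kg afterwards, and in the RPS group purified potato starch took the place of that corn starch. Feed was withheld before slaughter, the liver was sampled as whole tissue and the mucosa was scraped from the proximal colon. Each of the 4 groups (liver CS, liver RPS, colon CS and colon RPS) had 4 pigs and 1 array per pig. The methods give 1 pig slaughtered from each of 6 pens per diet, so some animals gave both tissues, at least 2 per diet. The labels do not say which, and the fits across tissues treat the arrays as independent.

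Cholesterol is built from acetyl-CoA through the mevalonate pathway, in which HMGCS1 makes the precursor of mevalonate and SQLE oxidizes squalene. SREBF2 encodes the transcription factor that is cut free and switches on these enzymes when membranes are short of sterol. The liver disposes of cholesterol by turning it into bile acids: CYP7A1 sets the pace of the classic route, and CYP27A1 hydroxylates the side chain and opens the alternative route, which is not limited to the liver. NR1H4 encodes FXR, the nuclear receptor for bile acids, and SCARB1 encodes SR-BI, the receptor that takes cholesteryl ester from HDL. Bile acids that escape uptake in the ileum reach the colon.

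The values are log2 signals of a one-colour array, and "called" means past both thresholds that the methods set, here 0.05 for the p from limma without adjustment and 1.5 for the fold change. Median signals per array were 56.3 to 70.8 in colon CS, 34.2 to 42.5 in colon RPS and 30.6 to 37.9 in liver, no spot was saturated, and 61.04% to 72.2% of the spots of an array were well above background by the scanner software's own mark. Each group lay on 1 slide of its own, so that slide and group cannot be told apart. The labelled tissues showed their markers. The log2 of the summed signal of 7 hepatocyte markers was 20.7 to 20.9 in liver and 8.71 to 10.4 in colon, and that of 9 colon epithelium markers was 17.2 to 19.4 in colon and 9.63 to 10.4 in liver. Among the colonic arrays, CS replicate 3 and RPS replicate 2 stood apart. Their epithelium sums were 17.2 and 17.8, against 18.9 to 19.4 on the other 6 arrays, and the sums of 3 B and plasma cell markers were 13.2 and 12.98, against 6.96 to 10.8. In whole tissue, fewer cells of a type and less RNA per cell cannot be told apart. Colonic results of NR1H4, SCARB1, HMGCS1 and CYP27A1, and counts of calls, are therefore also given without these 2 arrays.

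Every probe was a 60-mer of a transcript, and probes of 1 gene did not always behave alike, so their positions are given. The part of position in this was not tested. The 5 probes below are shown because the results on tissue and on the spread between animals turn on their genes. Each can be read through without a stop codon in at least 1 forward frame, as can every other probe of the list. They are written 5′ to 3′, as printed in the array annotation, with the listed first base in the transcript. The annotation gave no genome build or usable coordinates.
CYP7A1, base 367: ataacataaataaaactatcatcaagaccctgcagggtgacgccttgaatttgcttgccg
CYP27A1, base 1927: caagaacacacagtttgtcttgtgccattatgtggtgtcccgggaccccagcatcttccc
NR1H4, base 649: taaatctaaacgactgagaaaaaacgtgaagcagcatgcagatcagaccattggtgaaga
SCARB1, base 344: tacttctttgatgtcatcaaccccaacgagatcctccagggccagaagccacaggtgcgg
SCARB1, base 1571: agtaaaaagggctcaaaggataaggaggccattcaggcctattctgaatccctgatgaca

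The other 11 probes were HMGCS1 at base 5191, SQLE at bases 949, 2475 and 2478, SREBF2 at base 3046, CYP7A1 at base 2375, CYP27A1 at base 929, NR1H4 at bases 1821 and 2101, and SCARB1 at bases 1935 and 2557. The SQLE probes at 2475 and 2478 share 57 bases and are close to being 1 measurement. For each gene the brightest probe over all arrays is called the lead probe: it lies at base 2475 for SQLE, 2375 for CYP7A1, 1927 for CYP27A1, 2101 for NR1H4 and 2557 for SCARB1. HMGCS1 and SREBF2 had 1 probe each.

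Of the 16 probes, 2 were called between the diets in colon, both lower with RPS, against 2.94% of all probes, and none was called in liver, against 3.56% of all probes, although HMGCS1 was called there under 5 other settings and in 2 of 8 fits that left out 1 array. The 2 were HMGCS1, which was not well above background on any of the 8 colonic arrays, and 1 of the 4 SCARB1 probes. None had an adjusted p under 0.05: the smallest was 0.880 in colon and 0.658 in liver. Over all probes, 0 of 43603 reached an adjusted p under 0.05 in colon with limma (2362 had an unadjusted p under 0.05), and 1 did in liver (3309 unadjusted). The median difference of the 16 probes, RPS minus CS, was -0.17 in colon and 0.02 in liver on the log2 scale, beside 0.01 and -0.00 over all probes.

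**Figure D1:**
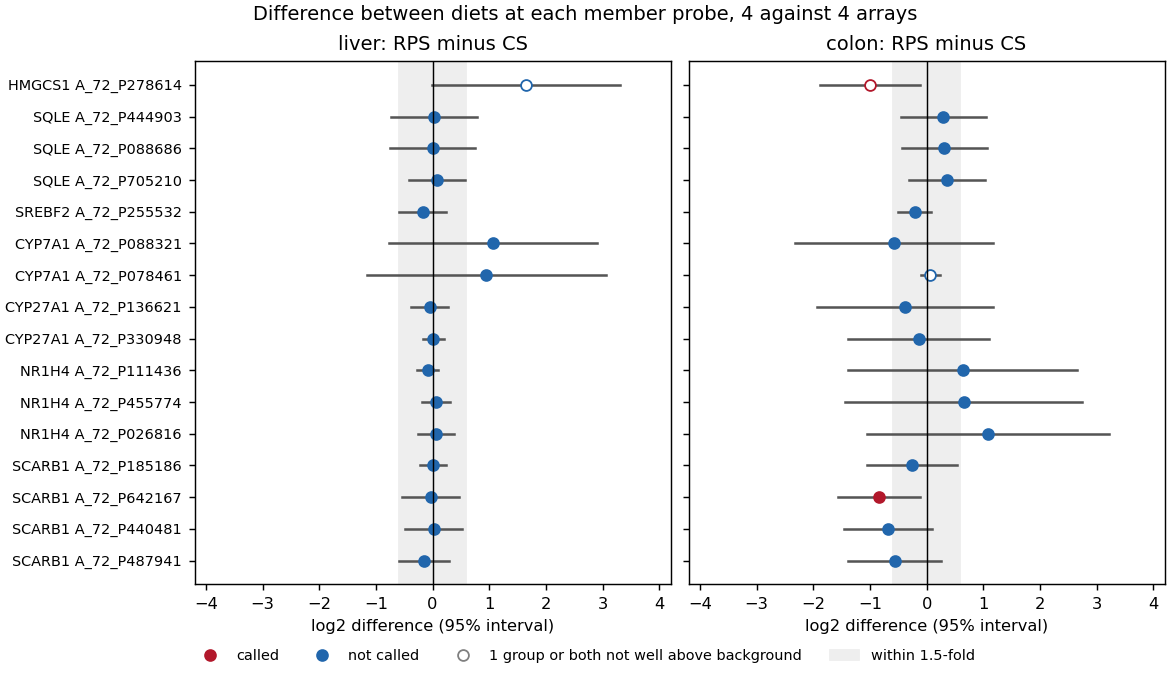
Log2 difference between pigs fed RPS and CS (x axis, RPS minus CS) at each of the 16 probes (y axis), in liver and colon, with 95% intervals from limma over 4 against 4 arrays. The intervals leave out 0 for HMGCS1 and for 1 SCARB1 probe in colon, while the intervals of CYP7A1 in liver and of NR1H4 in colon are several times wider than those of the same genes' neighbours such as SREBF2.

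HMGCS1, the gate into the mevalonate pathway, was measured at the edge of detection. In liver its log2 signal was 0.98, 1.25, 0.97 and 1.08 in the 4 pigs fed CS, and 3.94, 1.89, 0.93 and 4.13 in the 4 pigs fed RPS. Only RPS replicates 1 and 4 were well above background, and RPS replicate 3 lay below all CS pigs, so the groups overlapped. The CS mean was 1.07 ± 0.13 and the RPS mean 2.72 ± 1.57 (SD, n = 4 each; limma p = 0.0509, adjusted p = 0.658, exact two-sided permutation p = 0.143, where 4 against 4 arrays cannot go below 0.0286). No fold change is given, because no CS array measured the probe and the lowest signals well above background, 2.84 to 3.499 on these arrays, exceed the RPS mean. The liver difference of HMGCS1 was called with the authors' log2 values, 75th percentile scaling, quantile normalization over 16 arrays, an eBayes trend and 16 arrays in 1 fit (1.65 to 1.85 on the log2 scale), and was 0.14 with normexp background correction. In colon the signals were 2.74, 3.04, 2.47 and 2.21 with CS and 1.00, 1.77, 1.10 and 2.59 with RPS, none of them well above background. The means were 2.61 ± 0.36 and 1.61 ± 0.73 (SD, n = 4 each). The call there (limma p = 0.0313, adjusted p = 0.891, exact permutation p = 0.0857) compares background levels on slides whose median signals differed, and it has no fold change.

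SQLE, the squalene oxidase, did not separate by diet. At its lead probe the liver signals were 12.86, 12.44, 12.67 and 12.98 with CS and 13.06, 12.44, 12.02 and 13.53 with RPS. The RPS pigs held both the highest and the lowest liver value. The difference was 0.02 (95% interval -0.74 to 0.78, adjusted p = 0.999). In colon the signals were 11.51, 11.82, 10.90 and 11.08 with CS and 11.60, 11.21, 11.30 and 12.39 with RPS, a difference of 0.30 (-0.45 to 1.04, adjusted p = 0.982). The highest colonic value, as in liver, belonged to an array numbered RPS replicate 4. The probe at base 949, which shares no bases with the other 2, followed them closely across the arrays of a tissue (r = 0.95 to 0.97 over 8 arrays, as a description) and gave differences of 0.08 in liver and 0.36 in colon.

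SREBF2 had the lowest SD of HMGCS1, SQLE and SREBF2 over the 8 arrays of each tissue, 0.26 in liver and 0.18 in colon. Within liver CS, the SQLE lead probe (0.24) and background-level HMGCS1 (0.13) had a lower SD than SREBF2 (0.28). Its signal was 12.85, 12.27, 12.34 and 12.72 in liver with CS and 12.40, 12.14, 12.69 and 12.24 with RPS, a difference of -0.17 (-0.59 to 0.24, adjusted p = 0.856). In colon it was 11.39, 11.46, 11.08 and 11.09 with CS and 10.996, 11.06, 10.96 and 11.16 with RPS, a difference of -0.21 (-0.50 to 0.08, adjusted p = 0.982). The diet groups overlapped in both tissues, and both intervals stay within 1.5-fold apart from the lower end in liver, which passes it slightly (-0.588).

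**Figure D2:**
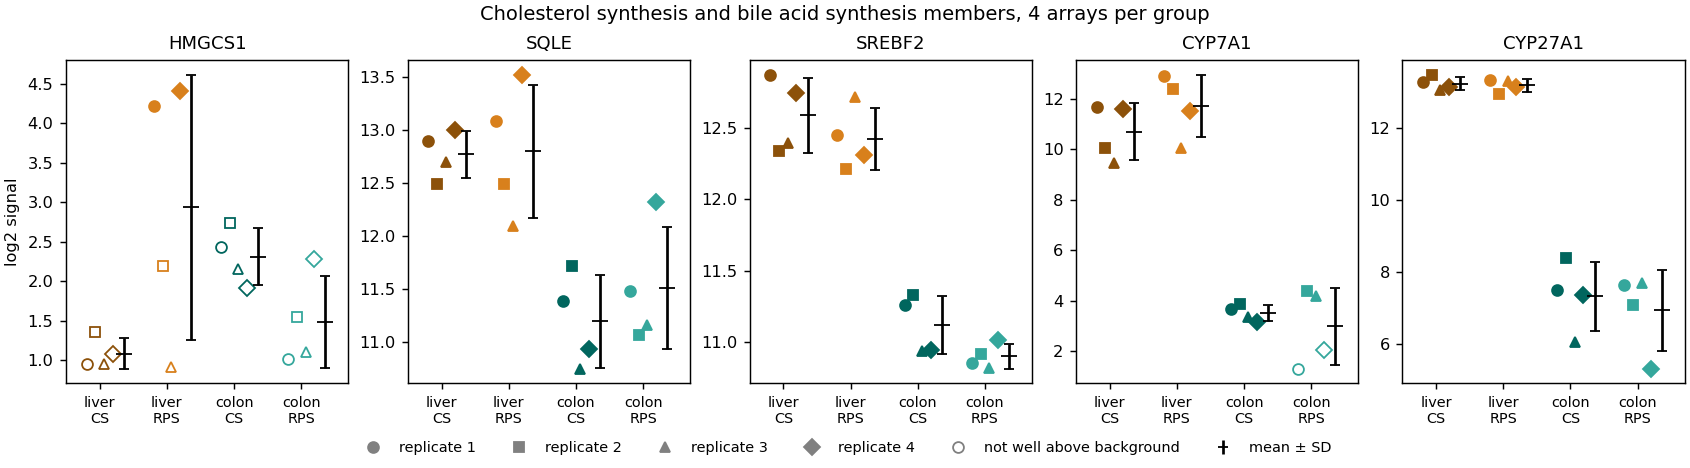
Log2 signal (y axis, all 16 arrays normalized together) of the lead probes of HMGCS1, SQLE, SREBF2, CYP7A1 and CYP27A1 in the 4 groups (x axis), 1 point per array with the replicate number as its shape, and the mean ± SD of 4 arrays beside it. Open points are not well above background. SREBF2, CYP7A1 and CYP27A1 separate the tissues with no overlap, and CYP7A1 spans 9.47 to 12.9 within the liver.

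Because the HMGCS1 probe was so dim, the rest of the pathway was read at the lead probe of every measured gene. Of 20 listed cholesterol synthesis genes 12 had a probe. In liver 2 of the 12 were called, both higher with RPS, beside 3.56% of all probes, and the median difference was 0.37. SC5D, the sterol C5-desaturase, was 9.17 ± 0.21 with RPS against 8.27 ± 0.37 with CS (SD, n = 4 each), without overlap (difference 0.90 ± 0.20 SE, limma p = 0.0025, adjusted p = 0.349, exact permutation p = 0.0286). HSD17B7, the ketosteroid reductase of the late pathway, was 12.44 ± 0.36 against 11.84 ± 0.13, also without overlap (0.60 ± 0.18 SE, limma p = 0.012, adjusted p = 0.507, exact permutation p = 0.0286). All 12 genes had a positive difference in liver, where 49.0% of all probes had one. The genes share arrays, so the 12 signs are not independent. The summed endothelium markers also separated the diets in liver (log2 12.8 to 13.1 with RPS, 13.13 to 13.22 with CS, 4 markers), and their part in the liver calls was not tested.

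The livers also differed from pig to pig. Each gene's signal was set against its own mean over the 8 liver arrays. In RPS replicate 1 all 12 genes were above their means, with a median of 0.66, and in RPS replicate 4 11 of 12 were, also with a median of 0.66. In RPS replicate 3 only 3 of 12 were above, with a median of -0.77, the lowest of the 8 livers. The CS livers had medians of -0.42 to -0.05, with 1 to 4 genes above. SQLE was highest in RPS replicate 4 and lowest in RPS replicate 3, and HMGCS1 was well above background in the 2 RPS livers with high medians. Both genes are among the 12 behind these medians, so this is not separate evidence. The log2 summed signal of 3 smooth muscle markers was also highest in RPS replicates 1 and 4 (13.91 and 13.75) and lowest in RPS replicate 3 (13.05). It was 13.69 in CS replicate 1, where 1 synthesis gene was above its mean. The part of these markers in the pattern was not tested.

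**Figure D3:**
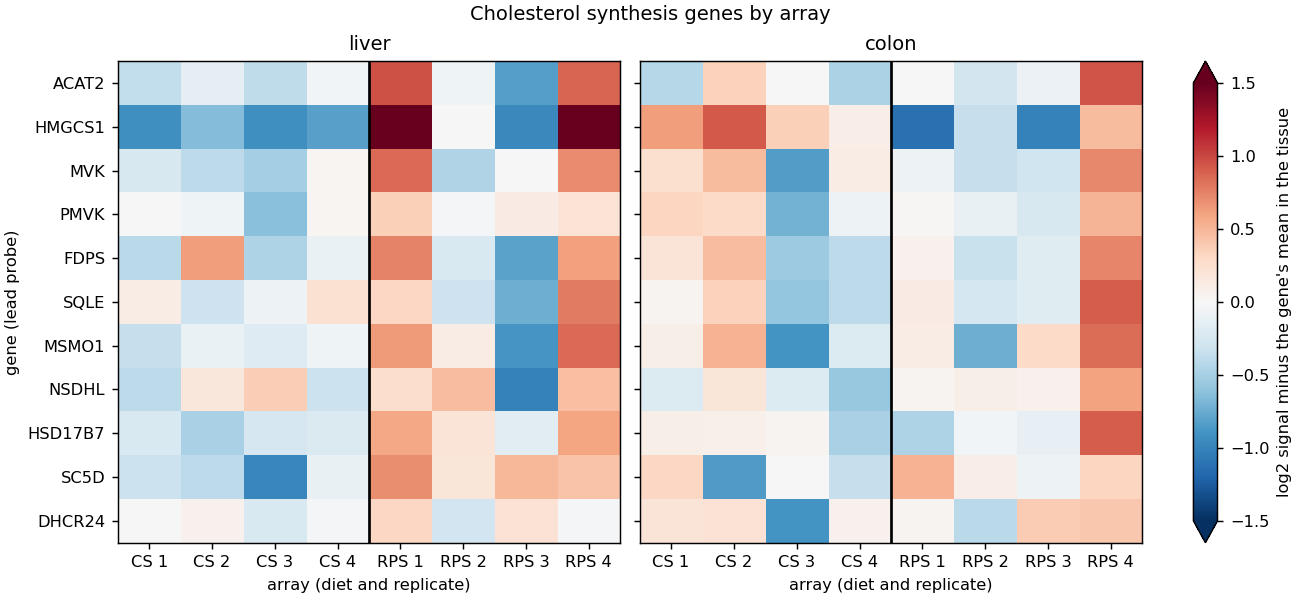
Log2 signal of 11 of the 12 cholesterol synthesis genes (y axis, lead probes) on each liver and colon array (x axis), as the deviation from the gene's mean over the 8 arrays of the tissue. RPS replicates 1 and 4 are red throughout most genes in liver while RPS replicate 3 is mostly blue, and in colon RPS replicate 4 is above the mean for every gene drawn and CS replicate 3 is mostly below.

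In colon, 1 of the 12 synthesis genes was called, the background-level HMGCS1, and the median difference was 0.23. The difference was positive for 11 of 12 genes, beside 52.3% of all probes. RPS replicate 4 stood above the mean for 12 of 12 genes (median 0.70). The 2 arrays with high B cell markers had the lowest medians, -0.56 in CS replicate 3 and -0.30 in RPS replicate 2. The part of the cell makeup in this was not tested.

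Of 15 listed genes for sterol sensing and uptake, 12 had a probe. None was called between the diets in either tissue, with median differences of 0.07 in liver and -0.14 in colon. In liver NPC1, which exports cholesterol from lysosomes, had a difference of 0.50 (adjusted p = 0.495) and STARD4, a cholesterol carrier, one of 0.51 (adjusted p = 0.583), both under the 1.5-fold threshold.

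CYP7A1, the first and rate-limiting enzyme of the classic bile acid route, did not separate by diet and varied widely between animals. At its lead probe the liver signals were 11.59, 9.88, 9.30 and 11.50 with CS and 12.88, 12.33, 9.91 and 11.43 with RPS. The spread among pigs on the same diet was 2.97 on the log2 scale, or 7.85-fold, with RPS and 2.30, or 4.91-fold, with CS. The difference between the diets was 1.07 (-0.77 to 2.91, adjusted p = 0.823). The probe at base 367 had its highest and lowest values in the same 2 livers. It read 9.08, 7.19, 6.67 and 9.11 with CS and 10.57, 9.59, 6.94 and 8.75 with RPS, and a difference of 0.95 (-1.16 to 3.06, adjusted p = 0.851). The 2 probes share no bases and followed each other across the livers (r = 0.99 over 8 arrays, as a description).

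NR0B2 encodes SHP, a repressor that FXR induces and that acts on the CYP7A1 gene, and its order across these livers was nearly the reverse of that of CYP7A1. Its signals were 8.44, 8.96, 10.50 and 8.62 with CS and 6.03, 8.06, 10.40 and 9.07 with RPS. The liver with the most CYP7A1, RPS replicate 1, had the least NR0B2, and the 2 livers with the most NR0B2, CS replicate 3 and RPS replicate 3, were among the 3 with the least CYP7A1. Over 8 livers Pearson's r was -0.89 (exact permutation p = 0.00134, adjusted p = 0.0067) and Spearman's rho was -0.93 (exact permutation p = 0.00223, adjusted p = 0.0112), with adjustment over the 5 measured bile acid sensing genes. Without the 2 livers farthest from the CYP7A1 median r was -0.94, and within the diets it was -0.86 for CS and -0.94 for RPS. The probe at base 367 gave r = -0.91. This pair was chosen after the values were seen, and the adjustment over 5 genes does not cover that choice. Its rank among all genes was not examined. Among 5189 symbols, the 5 closest to CYP7A1 in liver, none of them on the lists, had r of 0.94 to 0.98 in deviations from the diet means. The relation of CYP7A1 to NR1H4 itself was weaker (r = -0.54, exact permutation p = 0.173, adjusted p = 0.432), and NR0B2 did not separate by diet (difference -0.74 ± 0.93 SE, adjusted p = 0.890).

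CYP27A1, the sterol 27-hydroxylase, was nearly constant in liver. Its lead probe read 13.28, 13.49, 13.04 and 13.13 with CS and 13.33, 12.93, 13.32 and 13.14 with RPS, a difference of -0.05 (-0.37 to 0.27, adjusted p = 0.966). In colon it read 7.71, 8.59, 6.30 and 7.56 with CS and 7.85, 7.30, 7.91 and 5.56 with RPS, a difference of -0.38 (-1.93 to 1.17, adjusted p = 0.992). Without CS replicate 3 and RPS replicate 2 the difference of the lead probe was -0.84 ± 0.73 SE (limma adjusted p = 0.775). The colonic spread of 2.30 with CS and 2.35 with RPS was several times that of the liver, and the second probe, at base 929, followed it in colon (r = 0.99 over 8 arrays, as a description). In liver, where the gene hardly varied, the 2 probes did not follow each other (r = 0.07).

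Of 14 listed bile acid synthesis genes 9 had a probe, and none was called between the diets in liver (median difference 0.04) or colon (median -0.16). Of 10 listed bile acid sensing genes 5 had a probe, again with none called (medians -0.09 in liver and 0.05 in colon).

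NR1H4, the bile acid receptor, was steady in liver and scattered in colon. The lead probe read 11.28, 11.33, 11.45 and 11.49 in liver with CS and 11.26, 11.25, 11.35 and 11.35 with RPS, a difference of -0.09 (-0.27 to 0.10, adjusted p = 0.850). In colon it read 8.64, 8.74, 5.87 and 8.93 with CS and 10.11, 7.20, 9.04 and 8.37 with RPS, a difference of 0.64 (-1.39 to 2.66, adjusted p = 0.988). The lowest 2 values came from CS replicate 3 and RPS replicate 2, the arrays with low epithelium and high B cell marker sums, and the highest came from RPS replicate 1, which had the highest epithelium sum and the lowest B cell sum. The 3 NR1H4 probes agreed on this in colon (r = 0.98 to 1.00 over 8 arrays, as a description). Without the 2 arrays the difference was 0.41 ± 0.45 SE (adjusted p = 0.810), and without CS replicate 3 alone it was -0.08. The part of the marker differences in this was not tested.

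**Figure D4:**
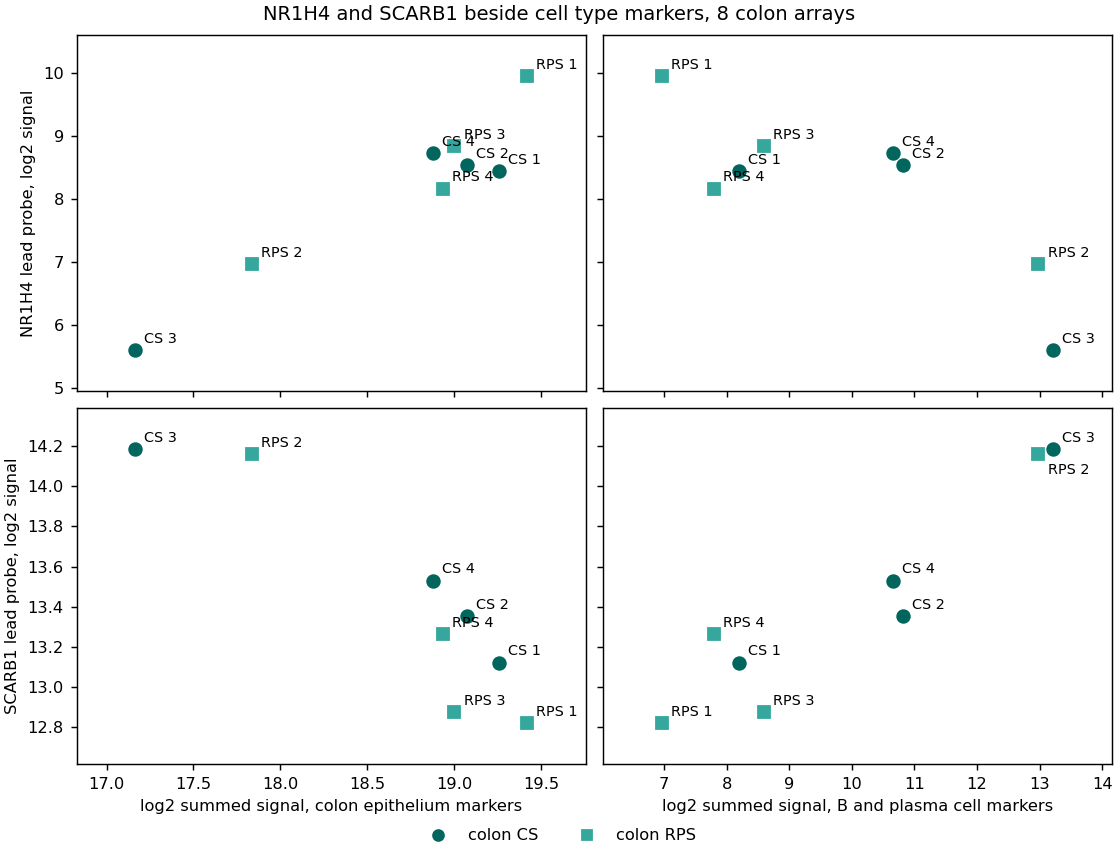
Log2 signal of NR1H4 and SCARB1 (y axes, lead probes) against the log2 summed signal of 9 colon epithelium markers and of 3 B and plasma cell markers (x axes) on the 8 colonic arrays, all 16 arrays normalized together. CS replicate 3 and RPS replicate 2 lie apart from the other 6 arrays in every panel, with the lowest NR1H4 and the highest SCARB1.

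SCARB1, the HDL receptor, ran the other way in colon. Its lead probe read 13.14, 13.36, 14.14 and 13.52 with CS and 12.85, 14.12, 12.90 and 13.27 with RPS, and the 2 highest values were those of CS replicate 3 and RPS replicate 2. The difference was -0.25 (-1.05 to 0.54, adjusted p = 0.987). The probe at base 1935 read 8.35, 8.58, 8.96 and 8.61 with CS and 7.64, 8.68, 7.48 and 7.34 with RPS, and it was called, with a difference of -0.84 (-1.56 to -0.12, limma p = 0.0282, adjusted p = 0.880, exact two-sided permutation p = 0.114). RPS replicate 2 was the exception that made the groups overlap. The other 2 probes gave -0.69 (base 1571) and -0.57 (base 344) and were not called.

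Without CS replicate 3 and RPS replicate 2, a choice made after the values were seen, 3 of the 4 SCARB1 probes were called lower with RPS. The probe at base 1935 then had a difference of -1.03 ± 0.13 SE (adjusted p = 0.227), that at base 1571 -0.72 ± 0.22 SE (adjusted p = 0.441) and that at base 344 -0.58 ± 0.20 SE (adjusted p = 0.495), while the lead probe had -0.33 ± 0.17 SE (adjusted p = 0.629). HMGCS1 was no longer called, though its difference on fewer arrays was of like size (-1.07 against -1.001, both between signals not well above background). In the same fit 2385 of all probes were called, against 1283 with all arrays. Macrophages also carry SR-BI, and the log2 summed signal of 6 macrophage markers was 15.4 to 15.6 in colon CS and 13.8 to 15.03 in colon RPS, without overlap, and no marker of the 6 was under background throughout a group. The log2 summed signal of 3 smooth muscle markers was also lower in colon RPS without overlap, at 14.1 to 14.5 against 14.76 to 14.88. The part of these differences in the SCARB1 and LIPA values was not tested.

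In liver SCARB1 was level. The lead probe was 15.18 ± 0.10 with CS and 15.18 ± 0.14 with RPS (SD, n = 4 each), a difference of 0.00 (-0.23 to 0.23, adjusted p = 1), and the other 3 probes had differences of -0.16 to 0.02. Between NR1H4 and SCARB1 in colon, no r is given over arrays of which 2 stood apart. Over the other 6 arrays Pearson's r was -0.62 (exact permutation p = 0.181) and Spearman's rho -0.49 (exact permutation p = 0.356).

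Of 11 listed bile acid transport genes 8 had a probe. In liver 1 was called, ABCC2, the canalicular export pump for conjugates, which was 12.21 ± 0.31 with RPS against 12.81 ± 0.18 with CS (SD, n = 4 each), without overlap (difference -0.61 ± 0.17 SE, limma p = 0.00877, adjusted p = 0.479, exact permutation p = 0.0286). Its other 3 probes had differences of -0.35 each and were not called. None of the 8 was called in colon. Of 16 listed genes for sterol efflux and HDL 11 had a probe, with none called in liver and 2 in colon. LIPA, lysosomal acid lipase, was 11.68 ± 0.56 with RPS against 12.35 ± 0.14 with CS, without overlap (difference -0.68 ± 0.27 SE, limma p = 0.0399, adjusted p = 0.902, exact permutation p = 0.0286), and 1 of its other 3 probes was called, also lower. LIPC, hepatic lipase, was not well above background on any RPS array and on 2 of 4 CS arrays. Its means were 1.76 ± 0.51 and 2.58 ± 0.32 (limma adjusted p = 0.821), and no fold change is given. Over all 57 measured genes of the 6 lists, 3 were called in liver and 3 in colon, 5.26% each, near the 3.56% and 2.94% of all probes.

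Tissue made far larger differences than diet. With the 16 arrays normalized together and a call at an adjusted p under 0.05 and a fold change above 1.5, 15 of the 16 probes were lower in colon than in liver, against 42.2% of all probes called in either direction and 18.7% called lower in colon. HMGCS1 was the exception, at background on most arrays of both tissues. CYP7A1 at its lead probe was 11.22 ± 1.22 (SD, n = 8) in liver and 3.24 ± 1.06 (SD, n = 8) in colon, where 6 of 8 arrays were well above background (difference -7.98 ± 0.54 SE, adjusted p = 1.54e-08, and -4.46 with normexp background correction, which lifts dim signals). At base 367 no colonic array measured it. The liver signal was 62.8-fold above the lowest signals well above background on the colonic arrays (limma adjusted p = 3.69e-09 for the fitted difference). Such a fold depends on the background correction and is not a strict lower bound. The CYP27A1 difference was -6.10 ± 0.35 SE at its lead probe and -5.63 ± 0.28 SE at the other, with adjusted p of 3.11e-09 and 5.61e-10, and -5.31 with normexp at the lead probe, which was well above background on 8 of 8 colonic arrays.

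NR1H4 was lower in colon by a difference of -3.31 ± 0.46 SE at the lead probe (8.16 ± 1.32 against 11.47 ± 0.08, SD, n = 8, adjusted p = 2.57e-05) and of -3.30 and -3.06 at the others. SCARB1 differed by -1.70, -2.40, -2.46 and -1.58 over its 4 probes (adjusted p at most 1.62e-05), SREBF2 by -1.499 ± 0.11 SE (adjusted p = 3.05e-08) and SQLE by -1.39 to -1.44 (adjusted p at most 1.29e-04). The groups of 8 did not overlap for 13 of the 16 probes, beside 26.8% of all probes, the exceptions being HMGCS1 and the 2 SQLE probes that share bases. Without CS replicate 3 and RPS replicate 2 all 15 remained called, with NR1H4 at -2.71 and SCARB1 at -1.96 at the lead probes.

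**Figure D5:**
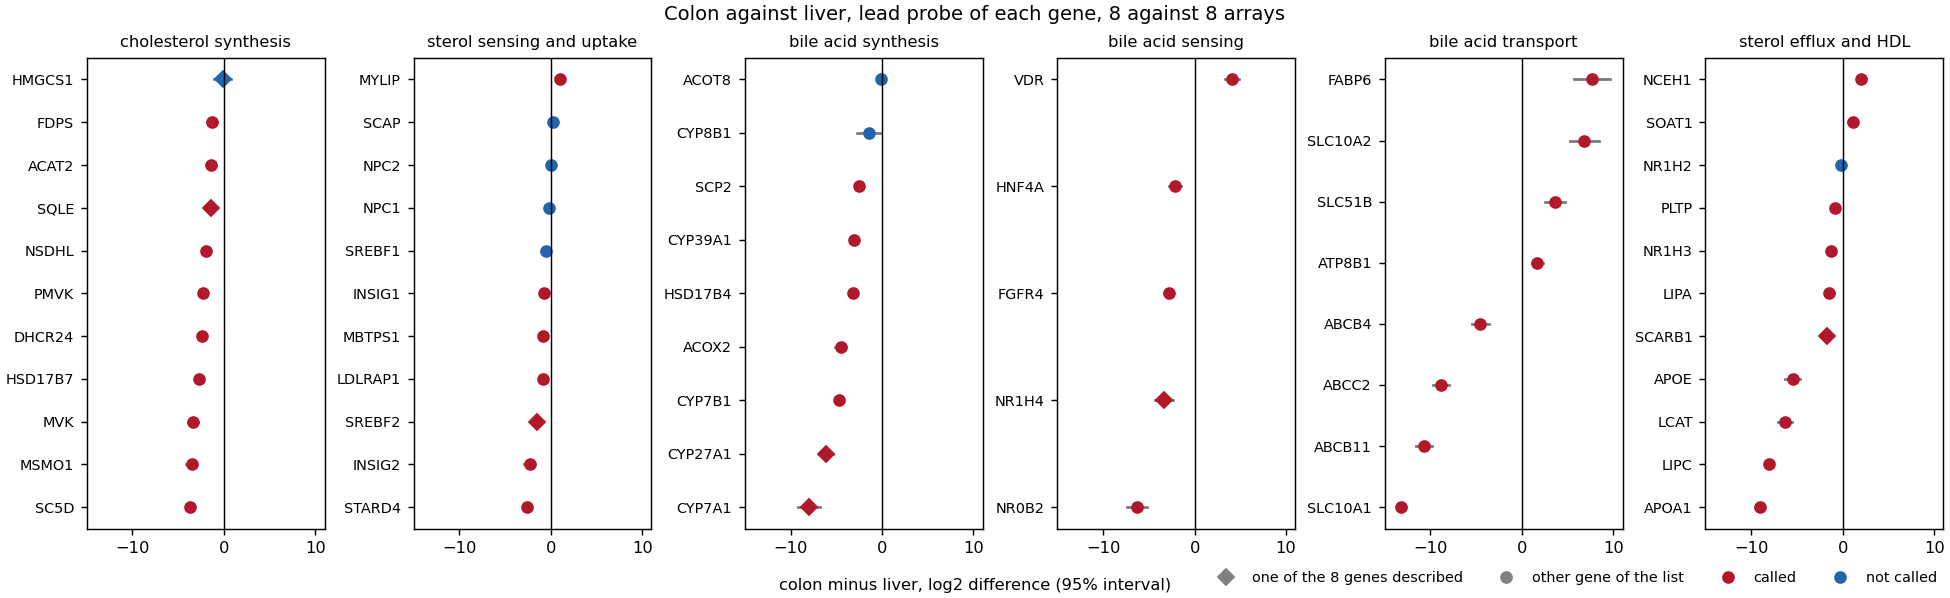
Colon minus liver on the log2 scale (x axis, with 95% intervals from limma, 8 against 8 arrays) for the lead probe of 55 of the 57 measured genes (y axis) of 6 lists. Of those drawn 39 were called lower and 8 higher in colon, beside 18.7% of all probes called lower. Bile acid transport is the list that splits, with 4 genes each way.

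Among the 57 genes of the lists, 40 were called lower in colon, 8 higher and 9 were not called. Of all probes 18.7% were called lower and 42.2% in either direction. Among the 30011 probes well above background on every array of a group, 16472 were called, 7144 of them lower. Lead probes are the brightest of their genes, so their counts are not fully comparable with either share. Of the 12 cholesterol synthesis genes 11 were lower (median -2.14), SC5D by -3.76, and of 9 bile acid synthesis genes 7 were lower (median -3.16), CYP7B1, the oxysterol hydroxylase, by -4.68. The bile acid transporters divided by tissue. SLC10A1, which takes bile acids up from portal blood, was on no colonic array well above background. Its liver signal was 3232-fold above the lowest such signals on the colonic arrays, and the difference was -7.85 with normexp, a smaller fold. ABCB11, the bile salt export pump, differed by -10.69 with 1 of 8 colonic arrays above background (-6.47 with normexp). ABCC2 and ABCB4 (the canalicular phospholipid floppase) differed by -8.85 and -4.55, each with 6 of 8 (-6.07 and -2.17 with normexp). SLC10A2, the apical sodium-dependent bile acid transporter, was on no liver array well above background. Its colonic signal was 21.0-fold above the lowest such signals on the liver arrays, and the difference was 2.34 with normexp, a smaller fold. FABP6, the ileal bile acid binding protein, was higher by 7.65 ± 0.92 SE (5.41 with normexp), as was SLC51B, a subunit of the basolateral exporter, by 3.65.

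For bile acid sensing, 4 of 5 genes were lower in colon, NR0B2 by -6.33 ± 0.51 SE, with 3 of 8 colonic arrays above background (-2.94 with normexp). VDR, a receptor that also binds lithocholic acid, was higher in colon and on no liver array well above background. Counted as for SLC10A2, its fold was 5.10. Of 12 sterol sensing and uptake genes 6 were lower and 1 higher (median -0.65), beside 18.7% of all probes called lower. Of 11 genes of sterol efflux and HDL 8 were lower and 2 higher (median -1.44): APOA1 and APOE, the apolipoproteins, by -9.02 and -5.48, LIPC by -8.06 with 2 of 8 colonic arrays above background (-3.87 with normexp) and LCAT, which esterifies cholesterol in plasma, by -6.34 (-5.05 with normexp).

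The diet difference itself differed between the tissues (colon difference minus liver difference, in 1 fit of 16 arrays) for 1 of 16 probes, HMGCS1, against 3.76% of all probes (limma adjusted p = 0.777), and 14 of the 16 signals behind it were not well above background. For the other probes the smallest unadjusted p was that of SCARB1 at base 1935 (-0.82 ± 0.39 SE, adjusted p = 0.999). Of the 57 genes 2 were called, HMGCS1 and SREBF1, whose protein drives fatty acid synthesis in the main. SREBF1 read 10.34, 10.26, 10.11 and 10.08 in liver with CS and 10.42, 10.42, 10.38 and 10.51 with RPS, so every RPS liver was above every CS liver. In colon it read 10.39, 10.59, 10.06 and 10.17 with CS and 10.02, 10.01, 9.63 and 9.99 with RPS, with every RPS array below. The interaction was -0.63 ± 0.19 SE (limma adjusted p = 0.727), and the second SREBF1 probe gave -0.33 and was not called.

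The question of whether HMGCS1 moved with the other genes was put to 12 relations, with each of the other 6 measured genes in each tissue over 8 arrays. In liver, HMGCS1 and SQLE had r = 0.70 (exact permutation p = 0.0593, adjusted p = 0.356) and rho = 0.64 (exact permutation p = 0.0962, adjusted p = 0.577), and without the 2 arrays farthest from the HMGCS1 median r was -0.13. Those 2, RPS replicates 1 and 4, were the only livers with HMGCS1 well above background, so the relation rested on them and the other 6 cannot test it. Within RPS r was 0.97 and within CS, all at background, -0.60. Between HMGCS1 and SREBF2 in colon, r was 0.84 (exact permutation p = 0.0147, adjusted p = 0.176) and rho 0.95 (exact permutation p = 0.00114, adjusted p = 0.0137), within CS 0.93 and within RPS 0.97, but no HMGCS1 signal there was well above background. None of the other 30 pairs of genes, added after the values were seen, passed adjustment (2 of 30 had an unadjusted exact permutation p under 0.05). One of them was SREBF2 with SCARB1 in liver, at r = 0.83 (adjusted p = 0.247 by exact permutation) and 0.90 without the 2 farthest arrays.

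Genes were also ranked by the likeness of their pattern, as Pearson's r of the deviations from the diet means over 8 arrays of a tissue, among 5189 to 5379 symbols. Closest to HMGCS1 in liver were NUP133 (0.98), ACAT2 (0.98), MYL9 (0.96), ABCA4 (0.95) and DECR1 (0.95), of which ACAT2, the thiolase of the first step of sterol synthesis, is on the synthesis list. HMGCS1 was well above background only in liver RPS replicates 1 and 4, and its SD was 0.13 with CS and 1.57 with RPS. These r values therefore rest mainly on the RPS livers. The ranks for SQLE were added after the values were seen, and all colonic ranks include CS replicate 3 and RPS replicate 2, which stood apart. Closest to SQLE in colon was FDPS (0.99), the farnesyl diphosphate synthase upstream in the pathway, followed by RAB10, ARL1, COPZ1 and C13H3orf14 (0.96 to 0.97). In liver the closest to SQLE were MYL9, ABCA4, COX6C, FETUIN and REPS1 (0.95 to 0.97), and the closest to CYP7A1 were IQGAP2, TAF2, SUMO4, PDE7B and CENPM (0.94 to 0.98). For HMGCS1 in colon, at background, they were UNC119B, MRPL52, DEPTOR, ADCK2 and MRPS22 (0.94 to 0.96). No shared role is read from these ranks.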

How the data were processed

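Signals came from 16 one-colour Agilent porcine arrays, each of 1 tissue sample of 1 pig. Per the file headers, the authors extracted the deposited intensity values with Agilent Feature Extraction 10.7, background-subtracted within an array but not scaled between arrays. They also deposited log2 values, quantile normalized in GeneSpring according to the methods. The software's own flags (other columns of 0 and 1) marked outliers and signal above background.

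Control spots were dropped, outlier spots set to missing, log2 signals quantile normalized within a tissue (over 16 arrays for tissue comparisons) and spots averaged per probe. Diets were compared with limma 3.58.1 in R 4.3.3 (lmFit, eBayes), with Benjamini-Hochberg adjustment over 43603 probes. Calls used an unadjusted p under 0.05 and a fold above 1.5, or an adjusted p for tissues. Symbols were found for 14347 probes through the annotation and RefSeq names. The fit was tested on simulated data. Permutation tests used scipy 1.17.1, tables pandas 2.3.3 and numpy 2.4.6, figures matplotlib 3.10.9.

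Named were all probes of the 8 genes and, at the lead probe of other list genes, up to 8 called per diet comparison by p, up to 12 for tissue by size, up to 3 for the interaction, and the 5 symbols most like HMGCS1 and CYP7A1. The genes, lists and tests were chosen with earlier results of these data known. Other genes named were chosen after their values were seen. A planned promoter search was not made, for want of promoter sequence here. The precision is limited by 4 pigs per group. Single values of some list genes are not reported here, though counts and medians over a list include every measured gene.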

Additional observations from a re-analysis of the deposited data

Results flagged for a closer look

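In 5 of 64 groups of 4 arrays, 1 array lay apart from the other 3 by Dixon's criterion, which flags about 1 group in 20 by chance. All 3 NR1H4 probes singled out colon CS replicate 3, with log2 signals of 5.87, 4.07 and 3.37, and so did the SCARB1 probe at base 344, with 6.22. This array also had the lowest epithelium and the highest B cell marker sums of the 8 colonic arrays (17.2 and 13.2), and the part of these in the result was not tested. The SQLE probe at base 949 singled out liver CS replicate 4, with 8.50, a value not shared by the other SQLE probes as an outlier.

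The diet difference in colon minus that in liver was -2.67 for HMGCS1 and -0.63 for SREBF1, with unadjusted limma p of 0.00771 and 0.00451 and adjusted p of 0.777 and 0.727. The HMGCS1 value is fitted to signals of which 14 of 16 were not well above background.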

How the results depend on the processing

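Probes called between the diets in colon numbered 1283 and were 1968 with 75th percentile scaling, 172 with normexp background correction, 780 among probes well above background, 517 at a fold above 2 and 2385 without CS replicate 3 and RPS replicate 2, a choice made after seeing the data. Scaling also moved the split: 708 higher and 575 lower became 1358 and 610 at the 75th percentile, and for tissue 10223 higher and 8156 lower in colon became 8842 and 12429 with quantile normalization within a tissue, which moved the median of all probes to -0.19. In liver 1554 became 220, 965 and 525 with normexp, detected probes and a fold above 2. For tissue, 18379 became 10833 with normexp, and for diet by tissue 1638 became 296 with normexp, 923 at a fold above 2 and 2602 without the 2 arrays. The causes were not tested.

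Of the 16 probes, the 2 called in colon became 0 with normexp and 1 among detected probes or at a fold above 2. In liver, 1 probe (HMGCS1) in place of 0 was called with 75th percentile scaling, quantile normalization over 16 arrays, the authors' log2 values, an eBayes trend or 16 arrays in 1 fit. For diet by tissue, 1 became 2 with 75th percentile scaling, 0 with normexp or detected probes and 3 without the 2 arrays. Of the 57 genes, the 3 called in colon became 0 with normexp, 1 among detected probes or at a fold above 2 and 5 with 16 arrays in 1 fit, the 3 in liver became 0 at a fold above 2, and the 2 for diet by tissue became 1 among detected probes or at a fold above 2 and 4 without the 2 arrays.

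Leaving out 1 array at a time gave 1067 (without CS replicate 4) to 2635 (without RPS replicate 2) called probes in colon, 1408 to 2029 in liver, 18116 to 18344 for tissue and 1507 to 2802 for diet by tissue. Of the 16 probes 0 to 4, 0 to 1, 15 to 15 and 1 to 3 were called, and of the 57 genes 1 to 6, 2 to 6, 48 to 49 and 1 to 5. Differences that changed sign were those of NR1H4 (-0.085 to 1.13), CYP7A1 (-1.06 to 0.032) and CYP27A1 (-0.80 to 0.15) in colon, SQLE (-0.23 to 0.27), CYP27A1 (-0.12 to 0.032) and SCARB1 (-0.044 to 0.061) in liver, HMGCS1 (-0.45 to 0.14) between tissues, and SREBF2 (-0.15 to 0.044), CYP27A1 (-0.77 to 0.20) and NR1H4 (-0.0096 to 1.24) for diet by tissue. None of these was called. The SCARB1 call at base 1935 was lost in 6 of 8 such fits (-1.14 to -0.69) and the colonic HMGCS1 call in 4 (-1.37 to -0.80). LIPA was lost in 6, LIPC in 2, ABCC2 in 4, HSD17B7 in 3 and SC5D in 0. The SREBF1 call for diet by tissue was lost in 2 of 16 fits. The SCARB1 liver difference also turned with the authors' log2 values (-0.0061) and with outlier spots kept (-0.0053), and with 75th percentile scaling r became 0.070 for HMGCS1 with CYP27A1 and 0.13 with SCARB1 in liver.

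Same-numbered CS and RPS arrays had correlated deviations of -0.52 to 0.54 in colon and -0.15 to 0.10 in liver. Same-numbered colon and liver arrays had 0.16 to 0.33 with CS and -0.08 to 0.07 with RPS, so that CS numbers may mark the same pig, but not every pair passed 0.1 and the numbers were not taken to pair animals. With the replicate number as a block, 1267 probes were called in colon, 1522 in liver, 18629 for tissue and 1833 for diet by tissue. Of the 16 probes, the block left 1 called in colon, where HMGCS1 was lost at the same difference (-1.001), and gave 2 for diet by tissue.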

Other observations

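FABP6 and SLC10A2, known from the ileum, varied widely between animals in the proximal colon. FABP6 read 11.16, 12.13, 14.65 and 13.62 with CS and 9.37, 16.58, 9.27 and 12.17 with RPS, and its 2 highest values belonged to CS replicate 3 and RPS replicate 2, the arrays with high B cell marker sums. SLC10A2 read 8.91, 7.26, 5.78 and 9.62 with CS and 9.14, 8.98, 9.76 and 4.52 with RPS, in another order. Neither was called between the diets. The differences were -1.05 ± 1.71 SE and 0.21 ± 1.35 SE, with limma adjusted p of 0.992 and 0.999. CYP8B1, the sterol 12-alpha-hydroxylase, was well above background on 2 of the 8 liver arrays, 1 of each diet, and on no colonic array.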
